A study of Rattus norvegicus with 10 samples.

Results

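The genes described here mark the blood-brain barrier and the endothelium of the rat dentate gyrus, the hippocampal region examined 3 weeks after traumatic brain injury (TBI). The list was given by name and holds 10 genes. It comprises the junction genes Cldn5, Ocln and Tjp1, the transporters Abcb1a, Slc2a1 and Mfsd2a, the endothelial adhesion molecules Icam1 and Pecam1, Vwf and Flt1. Of these, 9 had a row among the 14166 genes of the bulk table and 8 were among the 25399 features of the nuclei. Pecam1, an adhesion molecule of endothelial contacts, had no row in the tables used here and was not analysed, and Abcb1a was measured in bulk only.

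Endothelial cells of brain capillaries are sealed to each other by tight junctions, carry few vesicles, and move nutrients and drugs across themselves by dedicated transporters. Pericytes and astrocyte endfeet surround these vessels and help to maintain this state. After an insult, endothelium can become activated, display adhesion molecules that bind leukocytes, and grow more permeable.

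All rats were young adult males of the Sprague Dawley strain, and the ipsilateral dentate gyrus was dissected. TBI rats received a craniectomy and, 3 days later, a lateral fluid percussion injury (LFPI), in which a pressure pulse of fluid strikes the intact dura. Sham rats were operated on in the same way but received no pulse, and the naïve rat was left unoperated. For bulk RNA-seq there were 3 rats in each of the sham and TBI groups, with 1 library per rat. Single-nucleus RNA-seq (snRNA-seq) covered 2 TBI rats, 1 sham rat and 1 naïve rat, and the study took the last 2 rats together as control.

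Among the members, Icam1, the leukocyte adhesion molecule whose promoter is a textbook target of NF-kB, had the largest bulk difference. Its promoter is shown first, beside those of Cldn5, the main claudin of brain endothelium, and Slc2a1, the glucose transporter GLUT1, which are also the members whose promoter window lies at least in part outside the annotated gene. RefSeq sequences of build GRCr8 were matched to 7 of the 10 members, and the bases before the annotated gene are printed 5′ to 3′. Capitals mark GGANNNTCC, an NF-kB-like motif that reads the same on both strands.
Icam1, chr8:27829595-27829687, plus strand: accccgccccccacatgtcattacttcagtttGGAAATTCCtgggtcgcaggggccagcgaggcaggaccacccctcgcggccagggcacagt
Cldn5, chr11:95718599-95718848, minus strand: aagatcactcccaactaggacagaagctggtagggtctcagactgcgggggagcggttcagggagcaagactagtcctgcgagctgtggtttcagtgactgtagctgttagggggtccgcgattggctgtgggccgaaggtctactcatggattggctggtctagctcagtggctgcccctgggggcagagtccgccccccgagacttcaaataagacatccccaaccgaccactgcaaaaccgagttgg
Slc2a1, chr5:138002272-138002521, plus strand: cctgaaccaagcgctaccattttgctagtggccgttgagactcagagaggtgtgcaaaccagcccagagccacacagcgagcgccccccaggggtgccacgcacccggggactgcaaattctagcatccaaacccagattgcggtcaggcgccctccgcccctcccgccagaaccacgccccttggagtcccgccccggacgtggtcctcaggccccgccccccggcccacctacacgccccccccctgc

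The Icam1 match lies at -218 to -210 from the transcript start that the RefSeq table uses. In the 250 bases before the start, 6.8% of 33469 rat promoters held this motif, and among the members it was found in Icam1 and, at -10 to -2, in Flt1. A second motif, CCGGAA, an ETS-like sequence searched on both strands, occurred 3 times in the Icam1 window, between -151 and -102 and outside the printed bases, and in no other member's window. It was present in 12.6% of all promoters. A match is a description of letters and not evidence of binding.

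The bulk libraries held between 25121893 and 44649404 estimated counts. Levels are given as log2 CPM, the log2 of CPM, a gene's count scaled to the size of its library, and the 3 TBI libraries were set against the 3 sham libraries with the quasi-likelihood test of edgeR, fitted to all 14166 genes. TBI replicate 3 stood apart. Its summed CPM of the 11 pericyte and smooth muscle markers was 878.3, against 164.5 to 259.2 in the other 5 libraries, and that of the 6 fibroblast markers was 844.2, against 35.7 to 158.1. The 15 endothelial markers, none of which is a member, were all detected in every library and summed to 523.4 CPM in TBI replicate 3, against 285.4 and 318.9 in the other TBI libraries and 241.7 to 289.1 in sham. Values without TBI replicate 3 are given beside the results. In bulk tissue, more endothelial cells and more RNA per endothelial cell cannot be told apart.

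In bulk, Icam1, Ocln and Abcb1a were higher in every TBI library than in every sham library, Vwf and Cldn5 were high mainly in 1 TBI library, and Tjp1 and Flt1 had a Log2FC near 0. None of the 9 members passed an FDR of 0.01, as 0 of 14166 genes did by edgeR's test, which gives a background of 0.0%. Over all genes 1360 had an unadjusted p under 0.05 (9.6%), and 1162 of them were higher in TBI (8.2%). Of the 9 members, 3 had an unadjusted p under 0.05, each of them higher in TBI. The groups did not overlap in 3 of the 9 members, against 14.7% of all genes, and against 11.7% of all genes for the higher direction. The median Log2FC of the members was 0.41, beside 0.46 for the 15 endothelial markers, all of them above 0, and 0.0 over all genes. Without TBI replicate 3 these medians were 0.22, 0.1 and -0.01.

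**Figure D1:**
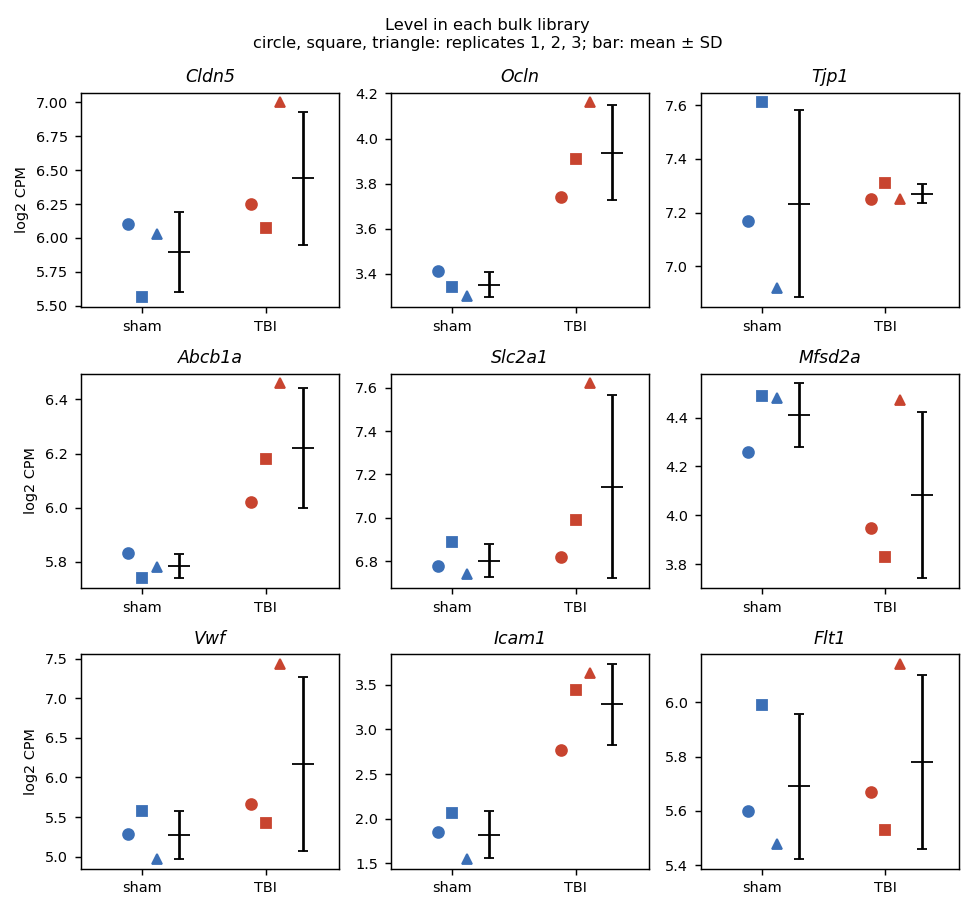
Level of the 9 measured genes in each bulk library (vertical axis, log2 CPM, with its own range in each panel), for sham (blue) and TBI (red); circles, squares and triangles are replicates 1, 2 and 3, and the bars give the mean ± SD of 3 libraries. Sham and TBI do not overlap for Ocln, Abcb1a and Icam1, and TBI replicate 3 lies above all other libraries for every gene but Tjp1 and Mfsd2a.

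Icam1 binds integrins of leukocytes and is induced on activated endothelium, and microglia and astrocytes can make it too. Its level was 1.85, 2.07 and 1.55 log2 CPM in sham replicates 1, 2 and 3 and 2.77, 3.44 and 3.63 log2 CPM in TBI replicates 1, 2 and 3. Every TBI library lay above every sham library, with means of 1.82 ± 0.26 (SD, n = 3) in sham and 3.28 ± 0.45 (SD, n = 3) in TBI. The fitted Log2FC was 1.46 with an SE of 0.27 (edgeR, unadjusted p = 0.000814, FDR = 0.196), a 2.74-fold difference. These levels rest on 94 to 128 estimated counts in sham and on 168 to 348 in TBI. Icam1 was the member that passed an FDR of 0.01 by DESeq2 (FDR = 0.000631), which called 1.19% of all genes. Without TBI replicate 3 its edgeR Log2FC was 1.29 (unadjusted p = 0.0034). DESeq2's FDR rose to 0.0331 without sham replicate 3, to 0.0232 without TBI replicate 2 and to 0.0236 without TBI replicate 3. Microglial markers were also higher in TBI. Of 9 measured, 7 were higher at an unadjusted edgeR p under 0.05, beside 8.2% of all genes. Their summed CPM was 379.7 to 412.1 in sham and 653.8, 1166.7 and 672.8 in TBI replicates 1, 2 and 3. The 7 astrocyte markers summed to 3392.6 to 4001.4 CPM in sham and to 5897.3 to 8961.7 CPM in TBI, and 4 of them had such a p. So did 6 of 11 pericyte, 4 of 6 fibroblast and 4 of 15 endothelial markers, all higher in TBI. The part of any of these cell types in the Icam1 result was not tested.

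Ocln encodes occludin, a membrane protein of tight junctions. Its level was 3.41, 3.34 and 3.3 log2 CPM in sham and 3.74, 3.91 and 4.16 log2 CPM in TBI. The sham libraries lay close together and all TBI libraries were above them. The Log2FC was 0.56 with an SE of 0.14 (edgeR, unadjusted p = 0.00483, FDR = 0.239), a 1.47-fold difference, and it was 0.45 without TBI replicate 3 (edgeR, unadjusted p = 0.0191). By DESeq2 with adjustment over all genes, Ocln had an FDR of 0.0855 and did not pass 0.01. When the DESeq2 adjustment was limited to genes with p under 0.05, which lowers adjusted values, Ocln had an adjusted p of 0.00921. By that adjustment 3.36% of all genes passed 0.01. The Log2FC of both Ocln and Icam1 lay under 1.5.

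Cldn5 encodes claudin-5, which closes brain endothelial junctions to small molecules. It was at 6.1, 5.56 and 6.03 log2 CPM in sham and at 6.25, 6.07 and 7.0 log2 CPM in TBI. TBI replicate 2 lay under sham replicate 1, so the groups overlapped, and TBI replicate 3 was the highest. The Log2FC was 0.54 with an SE of 0.25 (edgeR, unadjusted p = 0.0694, FDR = 0.58), and it fell to 0.22 without TBI replicate 3. Tjp1, which encodes the junction scaffold ZO-1 found in many cell types, was at 7.17, 7.61 and 6.92 log2 CPM in sham and at 7.25, 7.31 and 7.25 log2 CPM in TBI. All TBI libraries lay within the range of sham, and the Log2FC was -0.03 with an SE of 0.17 (edgeR, unadjusted p = 0.885). Its sign turned with the scaling, since it was 0.01 with library totals only.

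Abcb1a encodes P-glycoprotein, the efflux pump that returns drugs to the blood. It was at 5.83, 5.74 and 5.78 log2 CPM in sham and at 6.02, 6.18 and 6.46 log2 CPM in TBI. The groups did not overlap, and sham varied by less than TBI, with an SD of 0.05 against 0.23. The Log2FC was 0.41 with an SE of 0.12 (edgeR, unadjusted p = 0.0122, FDR = 0.317), a 1.32-fold difference, and 0.29 without TBI replicate 3 (edgeR, unadjusted p = 0.0416). This level is uncertain, because Abcb1a has a closely related gene, Abcb1b, which had no row in the tables used here. How reads were divided between these genes was not tested.

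Slc2a1 supplies the brain with glucose. It was at 6.78, 6.89 and 6.74 log2 CPM in sham and at 6.82, 6.99 and 7.62 log2 CPM in TBI. TBI replicate 3 was high and TBI replicate 1 lay under sham replicate 2. The Log2FC of 0.34 with an SE of 0.2 (edgeR, unadjusted p = 0.129, FDR = 0.669) fell to 0.07 without TBI replicate 3. Mfsd2a, a lipid transporter that keeps vesicle traffic across brain endothelium low, was the member with the clearest difference towards lower values. It was at 4.26, 4.49 and 4.48 log2 CPM in sham and at 3.95, 3.83 and 4.47 log2 CPM in TBI. TBI replicates 1 and 2 lay under all sham libraries, and TBI replicate 3 lay within their range. The Log2FC was -0.34 with an SE of 0.18 (edgeR, unadjusted p = 0.0999, FDR = 0.636), and without TBI replicate 3 it was -0.55 (edgeR, unadjusted p = 0.00865).

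Vwf encodes von Willebrand factor, which endothelial cells store and release to bind platelets. It was at 5.28, 5.58 and 4.97 log2 CPM in sham and at 5.66, 5.42 and 7.43 log2 CPM in TBI. TBI replicate 3 was far above all other libraries, and TBI replicate 2 lay within sham. The Log2FC of 1.13 had an SE of 0.51 (edgeR, unadjusted p = 0.0614, FDR = 0.556), and it was 0.22 without TBI replicate 3. Flt1, the VEGF receptor VEGFR1, was at 5.6, 5.99 and 5.48 log2 CPM in sham and at 5.67, 5.53 and 6.14 log2 CPM in TBI. TBI replicate 3 lay above all sham libraries and the other TBI libraries lay within their range, and the Log2FC was 0.06 with an SE of 0.19 (edgeR, unadjusted p = 0.768), turning to -0.13 without TBI replicate 3.

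**Figure D2:**
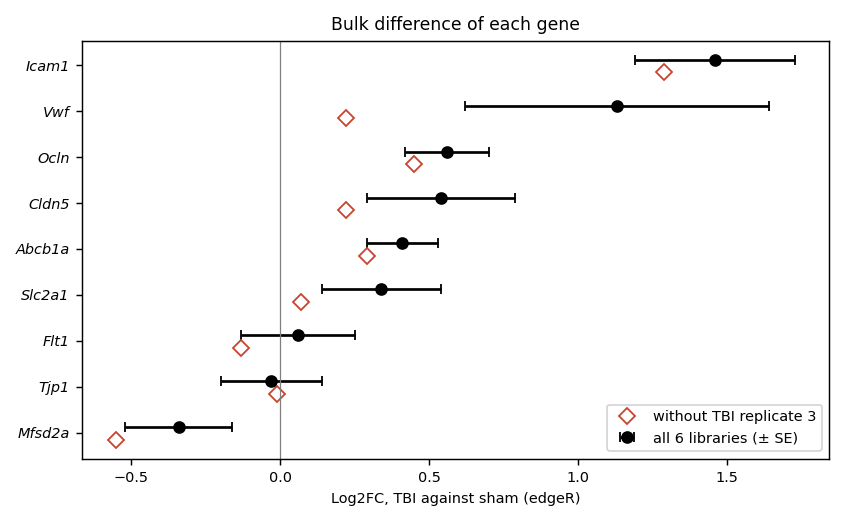
Log2FC of TBI against sham for the 9 genes (horizontal axis), from all 6 bulk libraries with its SE (black) and without TBI replicate 3 (open diamonds). Icam1, Ocln and Abcb1a stay above 0 without that library, whereas Vwf falls from 1.13 to 0.22 and Cldn5 from 0.54 to 0.22.

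The injury dates recorded for the rats of the bulk RNA-seq fall into 2 periods. Within spring (1 TBI and 2 sham rats) and within autumn (2 TBI rats and 1 sham rat), the TBI minus sham difference in log2 CPM was 0.81 and 1.99 for Icam1, 0.37 and 0.73 for Ocln, and 0.23 and 0.54 for Abcb1a. The direction was the same in both periods for these genes, for Cldn5 (0.42 and 0.5), for Vwf (0.23 and 1.46) and for Mfsd2a (-0.42 and -0.32). It differed between periods for Slc2a1, Tjp1 and Flt1, at -0.02 and 0.56, -0.14 and 0.36, and -0.12 and 0.36. The autumn values include TBI replicate 3. The other autumn rats, TBI replicate 2 and sham replicate 3, were at 5.42 and 4.97 log2 CPM for Vwf and 6.99 and 6.74 for Slc2a1. For Tjp1 they were at 7.31 and 6.92, and for Flt1 at 5.53 and 5.48. In each period 1 group was 1 rat, so a period and a single rat cannot be told apart.

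To ask whether a member moved by more than other endothelial genes of the same library, the mean log2 CPM of the 15 endothelial markers was subtracted from its level. That mean was 3.73, 3.92 and 3.67 in sham and 4.08, 3.86 and 4.75 in TBI. Where it rises, a gene with an unchanged level falls on this scale. The scale also treats each member as endothelial. Of the UMIs in all nuclei, endothelial-like nuclei held 0.97% for Icam1, 19.35% for Mfsd2a and 67.39% for Flt1. Relative to it, Icam1 lay higher in TBI, and Mfsd2a and Flt1 lay lower, with no overlap between the groups, while the groups overlapped for Ocln and Abcb1a. Non-overlap in 3 of 9 members stands beside 19.4% of all genes treated in the same way. Each of these 3 had p = 0.1 in an exact permutation test (two-sided, 3 against 3), which is the smallest p this design allows.

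Relative to the markers, Mfsd2a was at 0.53, 0.57 and 0.8 in sham and at -0.12, -0.03 and -0.27 in TBI on the log2 scale, a TBI minus sham difference of -0.777. Flt1 was at 1.87, 2.08 and 1.8 in sham and at 1.6, 1.68 and 1.39 in TBI, a difference of -0.362. Icam1 was at -1.88, -1.84 and -2.12 in sham and at -1.31, -0.42 and -1.11 in TBI, a difference of 1.005. For Mfsd2a and Flt1, the libraries that overlapped in absolute level thus separated on this scale, TBI replicate 3 included. Ocln, which was apart in absolute level, had a relative difference of 0.133 with overlapping groups (exact permutation test, two-sided, p = 0.7), and Abcb1a one of -0.021 (exact permutation test, two-sided, p = 1.0). Vwf had a relative value of 2.69 in TBI replicate 3, above the 1.29 to 1.67 of the other 5 libraries.

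**Figure D3:**
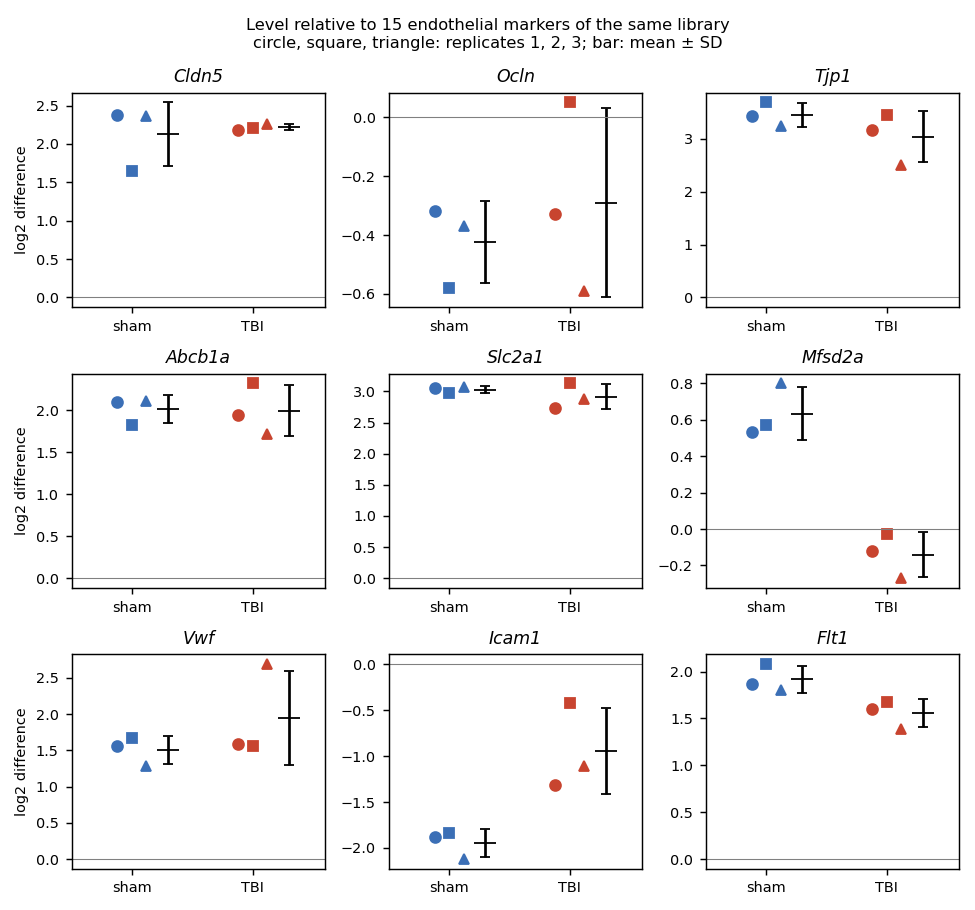
Level of the 9 genes minus the mean of 15 endothelial markers in the same bulk library (vertical axis, log2 difference; the grey line is 0), with symbols, colours and bars as in the plot of levels. TBI lies under sham for Mfsd2a and Flt1 and above it for Icam1, and the groups overlap for the other 6 genes.

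Of 56 further genes of barrier pathways, 52 were measured in bulk, and 13 had an unadjusted edgeR p under 0.05 with higher values in TBI and 1 with lower values, beside 8.2% and 1.4% of all genes. Their median Log2FC was 0.36, beside 0.46 for the endothelial markers, which share genes such as Tie1 and Eng with these lists. Without TBI replicate 3 the median fell to 0.09. At this p, 9 of the 52 genes were then higher (17.31%), beside 5.74% of all genes. Of the 13 genes, 9 were still higher, as were 772 of 1162 over all genes. Cdh5, Angpt2, Eng and Sox17 were not, and vascular signalling genes fell from 6 to 3. By list, 2 of 14 junction genes, 3 of 12 transport genes, 1 of 4 transcytosis genes, 1 of 5 adhesion genes and 6 of 18 vascular signalling genes were higher at this p, and the 1 lower gene was a transport gene. Whatever their p, 13 of the 52 were higher in every TBI library than in every sham library, and 2 were lower. Over all genes these shares were 11.7% and 3.04%. The share of all genes with both this p and no overlap in the higher direction is not given here, and is at most 8.2%. In the lists, genes with both numbered 10. They were F11r, the junctional adhesion molecule JAM-A, the amino acid transporter subunits Slc7a5 and Slc3a2, the organic anion transporter Slco2b1, Cavin1, a coat protein of caveolae, the leukocyte adhesion molecule Vcam1, the endothelial receptors Tie1 and Eng, the Wnt7 co-receptor Adgra2, and the transcription factor Ets1. None of the 52 passed an FDR of 0.01 by edgeR, and the part of each cell type in their bulk levels was not tested.

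Vcam1, which like Icam1 is induced on activated endothelium, was at 5.12, 5.25 and 5.0 log2 CPM in sham and at 5.5, 5.86 and 5.93 log2 CPM in TBI. Its Log2FC was 0.61 with an SE of 0.14 (edgeR, unadjusted p = 0.00258, FDR = 0.205). F11r was at 3.4, 3.55 and 3.28 log2 CPM in sham and at 3.87, 4.14 and 4.12 log2 CPM in TBI, with a Log2FC of 0.6 (edgeR, unadjusted p = 0.00293). Neither rested on TBI replicate 3, without which Vcam1 had a Log2FC of 0.54 and F11r one of 0.57. Cavin1 did, at 6.55 log2 CPM in that library and 4.18 to 5.04 in the others, and its Log2FC of 1.23 fell to 0.48 without it. Tfrc, the transferrin receptor that carries iron across brain endothelium and is also made by other cells, was the transport gene with lower values, at 6.93, 6.9 and 6.5 log2 CPM in sham and 6.47, 6.16 and 6.32 log2 CPM in TBI (Log2FC -0.51, edgeR, unadjusted p = 0.00836).

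In snRNA-seq, 55124 of 55863 nuclei passed the study's filters, with 26086141 to 35293678 UMIs (unique molecular identifiers, counted RNA molecules) per rat and medians of 1647 to 2652 UMIs per nucleus. Pairs of libraries shared 46 to 64 barcodes. Some matrix entries were stored as 0, between 1.63% and 27.36% of entries per library. Nuclei were clustered without the members, and clusters were named from marker genes that are not members. The class led by endothelial markers is called endothelial-like here, and it held 400 nuclei, 72 and 147 from TBI rats 1 and 2, 137 from the sham rat and 44 from the naïve rat. All 15 endothelial markers were higher in it than in the mean of the other clusters. Of these nuclei, 290 formed a sub-cluster led by genes such as Cldn5 and Adgrl4, and 110 a sub-cluster in which S100a6, Igf2 and Fn1 also led. The class also held pericyte signal, since the 11 pericyte markers summed to 2083.6 to 3248.4 CPM in it over the 4 rats, against 3099.7 to 4256.2 CPM in the pericyte-like class, and the larger sub-cluster had 446 UMIs of Atp13a5 and 179 of Pdgfrb. A neighbouring group of 137 nuclei carried pericyte and fibroblast markers and is called pericyte-like, and 73 nuclei with endothelial and astrocyte genes together stayed unnamed.

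The label of the list held in the nuclei for 7 of the 8 genes measured there, which were highest in endothelial-like nuclei in every rat. Icam1 was highest in microglia-like nuclei, but its 2 UMIs in endothelial-like nuclei were too few to judge the label. Levels are CPM of UMIs summed over a class within a rat, and the comparison of classes is a description without a test. Cldn5 ranged from 1644.7 to 3159.9 CPM over the 4 rats in endothelial-like nuclei, Flt1 from 2941.3 to 4465.1 CPM, Vwf from 363.3 to 580.5 CPM and Slc2a1 from 575.1 to 1097.4 CPM. In glutamatergic neuron-like nuclei, which should lack Cldn5, Flt1 and Vwf, these genes reached at most 5.1, 11.5 and 2.1 CPM, which gives the background level of these genes. Endothelial-like nuclei made up 0.73% of all nuclei and held 72.15% of the Cldn5 UMIs, 67.39% of those of Flt1 and 63.89% of those of Vwf.

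The other junction and transport genes were shared with further classes. Ocln was at 176.6 to 266.4 CPM in endothelial-like nuclei, and next at 25.5 to 50.2 CPM in microglia-like nuclei, with at most 11.4 CPM in every other named class except pericyte-like nuclei, where 1 UMI in 1 rat gave 16.8 CPM. Tjp1 was broad, at 398.6 to 654.6 CPM in endothelial-like nuclei, 173.7 to 230.3 CPM in astrocyte-like nuclei and 128.6 to 140.3 CPM in glutamatergic neuron-like nuclei, and only 2.54% of its UMIs lay in endothelial-like nuclei. Slc2a1 in astrocyte-like nuclei was at 47.5 to 85.2 CPM, and that larger class held 31.73% of its UMIs against 23.77% in endothelial-like nuclei. Mfsd2a was at 116.0 to 210.1 CPM in endothelial-like nuclei and at 13.7 to 40.2 CPM in oligodendrocyte-like nuclei. Because neurons made up most nuclei, glutamatergic neuron-like nuclei held 36.38% of the Mfsd2a UMIs against 19.35% in endothelial-like nuclei, and 40.89% of the Ocln UMIs against 22.88%. A bulk level of these genes is therefore not a measure of endothelium alone.

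Icam1 had 207 UMIs in all nuclei, and 2 of them were in endothelial-like nuclei. The TBI 1 and sham rats had 0 Icam1 UMIs there, which allows up to 15.1 and 9.0 CPM at a floor of 3 counts, a limit that covers counting error only. Microglia-like nuclei held 74 of the UMIs (35.75%) while making up 5.71% of nuclei, with 22.4 and 21.5 CPM in TBI rats 1 and 2, 6.3 CPM in sham and 40.1 CPM in naïve nuclei. The TBI rats thus lay between the controls, and the Log2FC was -0.08 with an SE of 0.71 (edgeR, unadjusted p = 0.918). The level in endothelial-like nuclei was too low for a comparison at this depth. Microglia-like nuclei themselves were 5.92% and 9.18% of nuclei in the TBI rats and 3.86% and 3.85% in the sham and naïve rats.

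**Figure D4:**
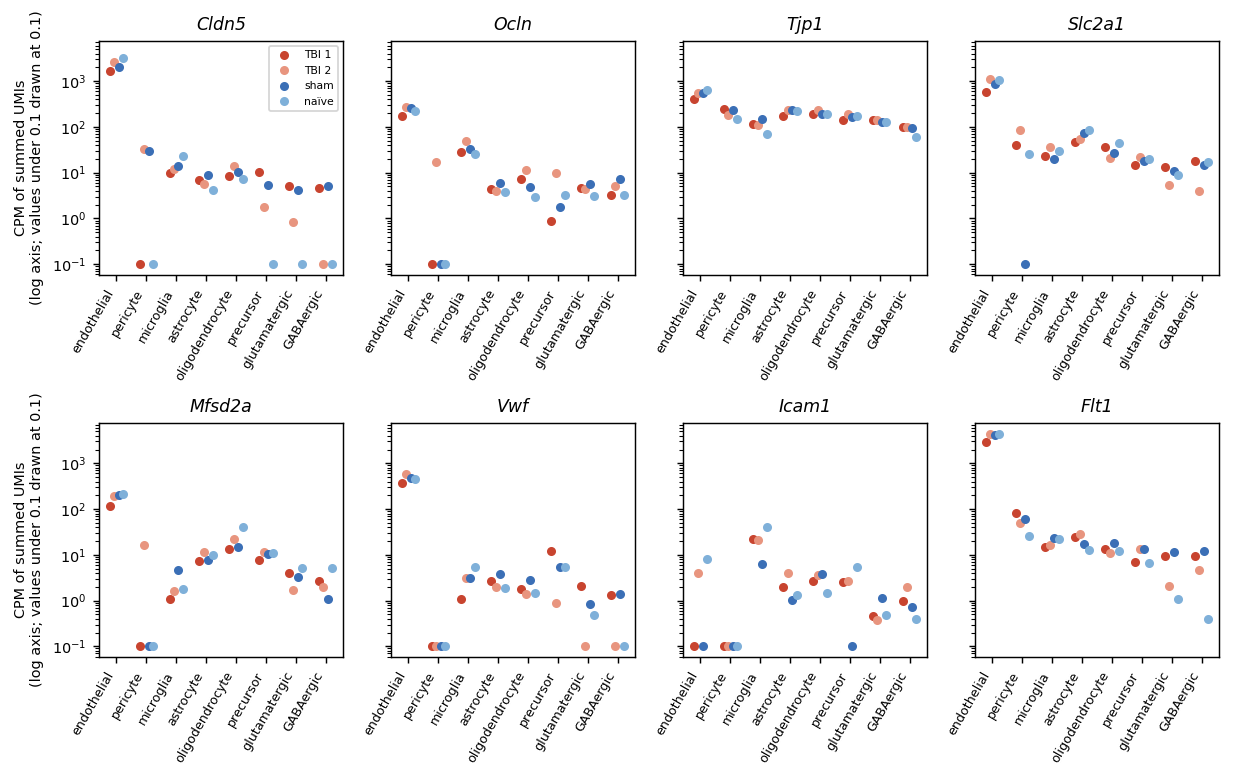
CPM of summed UMIs (vertical log axis; values under 0.1 are drawn at 0.1) of 8 genes in 8 named classes of nuclei, each point being 1 rat (TBI 1, TBI 2, sham, naïve). Every gene but Icam1 is highest in endothelial-like nuclei in all 4 rats. Icam1 is highest in microglia-like nuclei, with only 2 UMIs in endothelial-like nuclei.

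Within endothelial-like nuclei, no difference of a member between TBI and control was larger than the spread of the rats could give. UMIs were summed per rat, the 2 TBI rats were compared with the sham and naïve rats by edgeR's quasi-likelihood test, and 7 members were among the 5576 genes that passed the filter on low counts. Of these 7, 0 had an unadjusted p under 0.05, where 216 of 5576 genes did (3.87%). No gene passed an FDR of 0.01 by edgeR (0.0%), and DESeq2 also called 0. The median Log2FC of the 7 members was -0.24, beside -0.3 for the 15 endothelial markers and 0.0 over all genes.

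TBI rat 1 was low for every one of the 7 members. Cldn5 was at 1644.7 and 2608.3 CPM in TBI rats 1 and 2 and at 2000.3 and 3159.9 CPM in the sham and naïve rats, and its Log2FC was -0.3 with an SE of 0.41 (edgeR, unadjusted p = 0.471). Flt1 was at 2941.3 and 4465.1 CPM in the TBI rats and at 4141.7 and 4380.2 CPM in the controls. TBI rat 2 lay above both controls for Flt1 and between them for Cldn5. Mfsd2a was the member whose rats did not overlap, at 116.0 and 194.8 CPM in the TBI rats and 207.2 and 210.1 CPM in the sham and naïve rats, as was seen for 32.6% of all genes tested there. Its Log2FC was -0.43 with an SE of 0.36 (edgeR, unadjusted p = 0.253), and it rests on 23, 49, 69 and 26 UMIs in TBI rats 1 and 2 and the sham and naïve rats. All 7 members and the marker median had a Log2FC below 0 in this class. In its larger sub-cluster alone, the Log2FC of the members lay between -0.35 for Mfsd2a and 0.0 for Vwf, with Cldn5 at -0.15 and Flt1 at -0.1.

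The remaining members of this class overlapped between the groups. Slc2a1 was at 575.1 and 1097.4 CPM in the TBI rats and at 865.0 and 1082.9 CPM in the sham and naïve rats (Log2FC -0.24, SE 0.39). Vwf was at 363.3 and 580.5 CPM in the TBI rats and at 489.6 and 452.6 CPM in the controls (Log2FC -0.02, SE 0.36). Ocln had a Log2FC of -0.15 with an SE of 0.35 and Tjp1 one of -0.33 with an SE of 0.36. The SE of the 7 members lay between 0.35 and 0.41 whatever their count, and for Flt1 the exact Poisson intervals at 95% of TBI rat 1 (2707 to 3190 CPM) and TBI rat 2 (4208 to 4734 CPM) did not overlap, so the 2 TBI rats differed by more than counting error.

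The share of endothelial-like nuclei was 0.576% and 1.021% in TBI rats 1 and 2, 0.809% in sham and 0.39% in naïve. TBI rats lay on both sides of the sham rat. The means were 0.798% and 0.6%, a difference of 0.199 percentage points (exact permutation test, two-sided, p = 0.667, a design of 2 against 2 that cannot reach 0.05). The difference was -0.024 without TBI rat 2 and -0.011 without the naïve rat.

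Outside the endothelium, 2 of 35 fits of members in other classes had an unadjusted edgeR p under 0.05, a share near the 3.89% of all fits in those classes. Both were among the 7 members tested in astrocyte-like nuclei, where 12.4% of 12551 genes had such a p and 44.1% had rats that did not overlap. Slc2a1 was lower in TBI, at 47.5 and 55.1 CPM in TBI rats 1 and 2 against 72.3 and 85.2 CPM in the sham and naïve rats, on 164 to 443 UMIs per rat. Both TBI rats lay under both controls, and the Log2FC was -0.69 with an SE of 0.18 (edgeR, unadjusted p = 0.00667, FDR = 0.216). When any 1 rat was omitted, the Log2FC of Slc2a1 lay between -0.81 and -0.56, and its unadjusted p stayed under 0.05. Slc2a1 in endothelial-like nuclei of the same rats overlapped between the groups, and the difference between the 2 classes was not tested.

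Flt1 was higher in astrocyte-like nuclei of TBI rats, at 24.7 and 28.5 CPM against 17.5 and 12.9 CPM in the sham and naïve rats. The Log2FC was 0.75 with an SE of 0.29 (edgeR, unadjusted p = 0.0333, FDR = 0.351). Without TBI rat 2 it was 0.63 (edgeR, unadjusted p = 0.113), and without the naïve rat it was 0.54 (edgeR, unadjusted p = 0.176). As background, Flt1 in glutamatergic neuron-like nuclei was at 9.6 and 2.1 CPM in TBI rats 1 and 2 and at 11.5 and 1.1 CPM in the sham and naïve rats. Cldn5 in astrocyte-like nuclei was at 6.8 and 5.7 CPM in the TBI rats and at 8.7 and 4.2 CPM in the controls, with overlapping groups. The part of free endothelial RNA in the Flt1 values was not tested. Neither Slc2a1 nor Flt1 passed an FDR of 0.01, and 0 of the 12551 genes did (0.0%), with 1562 at an unadjusted p under 0.05.

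**Figure D5:**
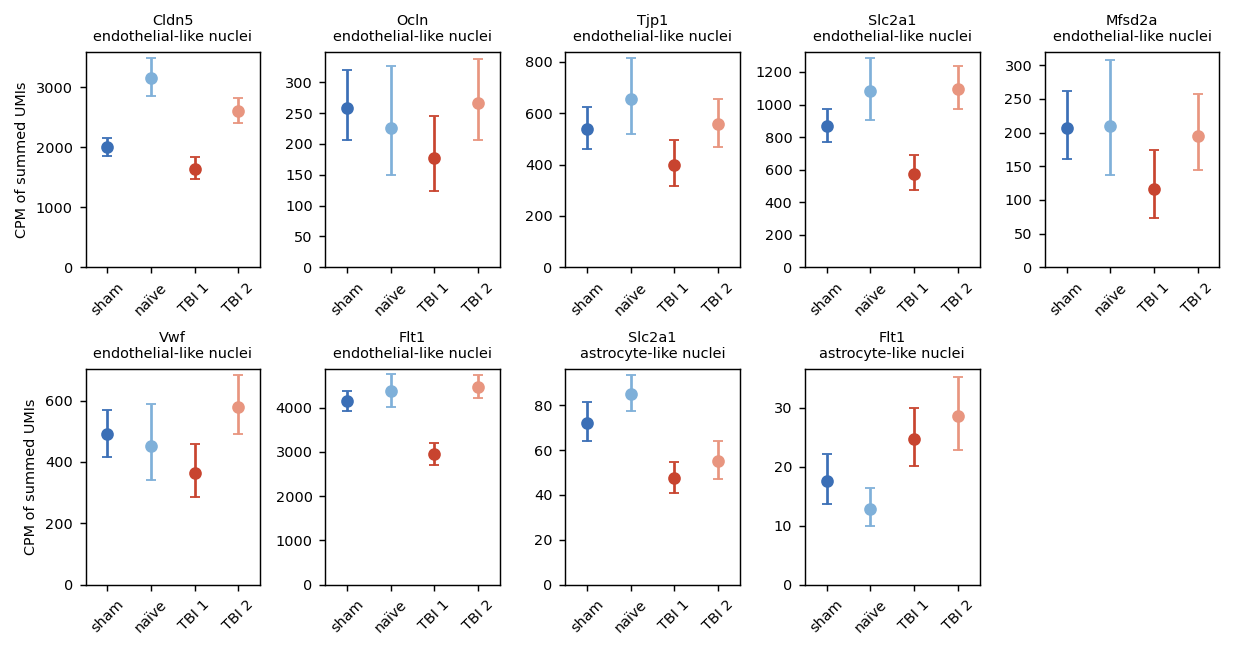
CPM of summed UMIs (vertical axis, from 0) in each rat for 7 genes in endothelial-like nuclei and for Slc2a1 and Flt1 in astrocyte-like nuclei; bars are exact Poisson intervals at 95% and cover counting error only. TBI rat 1 is the lowest rat in all 7 endothelial panels, whereas both TBI rats lie under both controls for Slc2a1 and above them for Flt1 in astrocyte-like nuclei.

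In the other classes, no member tested had an unadjusted edgeR p under 0.05, where 1.22% of genes did in glutamatergic neuron-like, 1.35% in GABAergic neuron-like, 2.27% in microglia-like, 2.02% in oligodendrocyte-like and 3.1% in oligodendrocyte precursor-like nuclei. No member passed the filter on low counts in pericyte-like nuclei. In microglia-like nuclei, the rats did not overlap for 2 of 6 members, Cldn5 and Flt1, both lower in TBI, beside 30.5% of all genes there. Ocln in these nuclei was at 27.8 and 50.2 CPM in TBI rats 1 and 2 and at 32.9 and 25.5 CPM in the sham and naïve rats, with a Log2FC of 0.38 and an SE of 0.43 (edgeR, unadjusted p = 0.394). Ocln lay above its level of 3.0 to 5.8 CPM in glutamatergic neuron-like nuclei in every rat, and the groups overlapped. Tjp1 in astrocyte-like nuclei had a Log2FC of -0.21 with an SE of 0.17 (edgeR, unadjusted p = 0.25), and in glutamatergic neuron-like nuclei, where it is best counted, one of 0.04 with an SE of 0.14.

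Over the 32 sums of 8 classes and 4 rats, the gene whose log2(CPM + 1) followed a member most closely was Adgrl4 for Cldn5 (Pearson r = 0.924), Ushbp1 for Vwf (r = 0.955), Srgn for Flt1 (r = 0.946), Ifi27 for Slc2a1 (r = 0.941), Prkch for Ocln (r = 0.937), Cert1 for Mfsd2a (r = 0.852) and AC109660.1 for Icam1 (r = 0.86). The 32 sums share rats, depth and clustering, so these values are descriptions and carry no p.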

How the data were processed

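For bulk RNA-seq, the authors made estimated counts per transcript with kallisto on the Rnor_6.0 rat reference, and the deposited log2 CPM table holds transcripts summed to genes after removal of unannotated features, low totals and the genes of lowest variance. Gene counts were worked back from log2 CPM (prior count 0.5) and each library's total and rounded. Rows were matched to RefSeq symbols for 13778 of 14166 genes. For snRNA-seq, the deposited UMI counts came from Cell Ranger over exons and introns, 1 library per rat. The sources used here do not say why some entries are stored as 0, and these were read as 0. DESeq2 and Seurat are named, without versions, in the submitters' processing notes.

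TBI and sham were compared with edgeR 4.0.16 in R 4.3.3 (quasi-likelihood test, TMM factors, Benjamini-Hochberg adjustment over all genes, FDR 0.01), with DESeq2 1.42.0 and limma 3.58.1 as alternatives. Each library is 1 rat. In simulated data for the bulk comparison (14166 genes), edgeR recovered 147 of 200 changed genes and called 2 unchanged ones, and for endothelial-like sums (5576 genes) it recovered 69 of 200. The changed genes differed by at least 2-fold in either direction, and in bulk had a mean above 1 CPM. The simulated spread of a gene followed from its mean level alone, and no simulated library stood apart as TBI replicate 3 did. These numbers therefore do not give the recovery in the real libraries, nor that of smaller differences, such as those of most members in bulk.

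Nuclei needed at least 500 UMIs, 300 features, 0.8 log10 genes per UMI, no more than 5% of UMIs from mitochondrial and 2% from ribosomal genes. They were integrated by canonical correlation analysis (25 components, resolution 0.6) on 1994 variable genes. A cluster took the name of the marker list with the highest mean log2 fold over other clusters (pseudocount 5 CPM, margin 0.5, at least 3 markers), and unnamed clusters were scored once more against glial and vascular clusters for neuron names only. The vascular cluster of 610 nuclei was split again at resolution 0.2. That split, its resolution and the scoring of neuron clusters were settled after the clusters were seen. Doublets were kept, and leaving out the highest 6% of Scrublet scores is an alternative. UMIs were summed per class and rat, and names may differ from those of the study.

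Members, gene lists and tests were chosen with earlier results of these data known, and motifs with the sequences in view. Pathway genes were named where their unadjusted bulk p was under 0.05 and the groups did not overlap, and the gene most like a member by its correlation over class sums among genes with at least 200 UMIs. For Tjp1 that gene is not reported here.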

Additional observations from a re-analysis of the deposited data

How the results depend on the processing

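Over all genes in bulk, edgeR called 0 genes at an FDR of 0.01 with all libraries and with each library left out (0 to 0), whereas DESeq2 called 169 and DESeq2 with adjustment limited to genes with p under 0.05 called 475. The cause was not tested. With each library left out, members with an unadjusted p under 0.05 numbered 3 to 5 (5 without TBI replicate 1 and 5 without TBI replicate 2). Without TBI replicate 3, 3 were higher and 1 lower, beside 5.74% and 0.47% of all genes. The median Log2FC of the members was 0.22 to 0.5. Members apart from sham relative to endothelial markers numbered 3 to 5 (5 when sham replicate 2 or TBI replicate 2 was omitted). Groups are more easily apart with 1 library fewer. Other shares over all genes are not given for these settings, so a count of 5 is not read as a result. The Log2FC of Tjp1 turned to 0.04 with limma, 0.01 with library totals only and 0.07 with surgery period as covariate, and ranged from -0.18 to 0.19 with libraries left out (0.19 without sham replicate 2). That of Flt1 ranged from -0.13 to 0.23 and was -0.05 without sham replicate 3.

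Bulk samples with the same replicate number correlated at 0.455, 0.303 and -0.073 in their deviations from group means, so the numbers were not taken as pairs. With the replicate number as a block, 1 gene passed the FDR, Tjp1 had a Log2FC of 0.0, and Cldn5 one of 0.51 with an unadjusted edgeR p of 0.0157. No paired analysis was possible in the nuclei because the groups share fewer than 2 replicate numbers.

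In endothelial-like nuclei, 1 gene passed the FDR when all genes with at least 1 UMI were fitted, and 0 to 5 did with rats left out (1 without TBI rat 2 and 5 without the sham rat). Vwf turned to 0.01 with library totals only, 0.06 without integration, 0.19 with nuclei gated on at least 3 markers, 0.14 without the highest Scrublet scores, 0.21 with the sub-cluster that also carries astrocyte genes and 0.0 in the largest sub-cluster. The gate also turned Cldn5 to 0.1, Slc2a1 to 0.05 and Flt1 to 0.08, and the sub-cluster with astrocyte genes turned Flt1 to 0.03. With rats left out, the Log2FC ranged from -0.48 to 0.09 for Ocln, from -0.77 to 0.15 for Slc2a1, from -0.39 to 0.27 for Vwf, from -0.55 to 0.04 for Flt1 and from -0.66 to 0.06 for Cldn5, with the highest value without TBI rat 1 except for Cldn5, where it was without the naïve rat. Vwf was 0.01 without the sham rat. The difference in the share of endothelial-like nuclei ranged from -0.024 to 0.421 percentage points, at -0.024 without TBI rat 2 and -0.011 without the naïve rat. In other classes, members with an unadjusted p under 0.05 numbered 2 with edgeR, 1 with DESeq2 and 1 to 6 with rats left out (4 without TBI rat 1, 1 without TBI rat 2 and 6 without the sham rat). For the counts with rats left out, where 1 group is 1 rat, the share over all genes is not given. The alternatives with the sub-clusters and for the other classes were chosen after seeing the data. Bulk Icam1, Ocln and Abcb1a kept their direction under every alternative run.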

Other observations

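Of the 56 barrier pathway genes, 38 could be tested in endothelial-like nuclei, and 2 had an unadjusted edgeR p under 0.05, a share near the 3.87% of all genes tested there. They are named here after their values were seen. Slc16a1, the lactate and ketone body transporter MCT1, was at 45.4 and 91.4 CPM in TBI rats 1 and 2 and at 138.2 and 169.7 CPM in the sham and naïve rats, with a Log2FC of -1.13 (edgeR, unadjusted p = 0.0195, FDR = 0.999). Angpt2, a ligand of the receptor Tie2 that is released by activated endothelium, was at 55.5 and 75.5 CPM in the TBI rats and at 33.0 and 8.1 CPM in the controls, with a Log2FC of 1.37 (edgeR, unadjusted p = 0.0417, FDR = 0.999). These levels rest on 9, 23, 46 and 21 UMIs of Slc16a1 and on 11, 19, 11 and 1 UMIs of Angpt2 in TBI rats 1 and 2 and the sham and naïve rats. Both TBI rats lay on 1 side of both controls for each gene, as was so for 32.6% of all genes tested there. In bulk, Angpt2 was at 0.86, 0.8 and 0.11 log2 CPM in sham and at 1.77, 0.78 and 3.76 log2 CPM in TBI, and its Log2FC of 1.98 fell to 0.71 without TBI replicate 3. Slc16a1 had a bulk Log2FC of -0.01 with an SE of 0.34.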
